A study of Mus musculus with 4 samples.

Results

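Neuronal splicing regulators of the Rbfox, Nova and Elavl families, together with Ptbp2 and Khdrbs2, were followed in ribosome-bound RNA of mouse hippocampal neurons after sleep deprivation. The 10 genes were chosen by gene symbol (Rbfox1, Rbfox2, Rbfox3, Nova1, Nova2, Elavl2, Elavl3, Elavl4, Ptbp2 and Khdrbs2) from the 28193 genes of the count table. All 10 were in the table and all 10 passed the filter for testing (over 5 counts in each library), as did 22338 genes in all. The method, fosTRAP-seq, sequences RNA from ribosomes of neurons that were active in a tagging window, using an HA tag on the ribosomal protein Rpl22 whose expression depends on a Cre driven by the Fos promoter. The animals were male C57BL/6J mice of 3 to 5 months. In the study's methods AAV8-c-Fos-ERT2-Cre-ERT2-PEST, plus AAV9-EF1a-DIO-HA-mRpl22-IRES2-eYFP that depends on its Cre, were injected into CA1, whereas the sample labels give the genotype as cFos-Cre:Ribotag and the tissue as dorsal hippocampus. Every mouse, in both groups, received 4-OHT and was sleep deprived for 5 h on day 0, so that both groups carried the same tagging. A second bout of 5 h on day 7 was given to the SD mice and not to the NSD (non-sleep-deprived) mice, with tissue taken at ZT5. Each library is a pool of the CA1 of 5 mice, and each group has 2 libraries. The batch number of each library equals its replicate number, so that each batch held 1 NSD and 1 SD library. The comparison asked how a second bout of sleep loss changes the translated RNA of neurons tagged in the first.

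Alternative splicing lets 1 neuronal gene give several proteins, and RNA-binding proteins decide which exons are kept by binding short elements in and around them. Rbfox proteins bind UGCAUG, Nova proteins bind clusters of YCAY, and the neuronal Elavl (Hu) proteins bind U-rich and AU-rich stretches, through which they also act on mRNA stability and translation. Ptbp2 is the neuronal paralog of the splicing repressor Ptbp1, and Khdrbs2 (SLM1) is a STAR-family protein that, with its paralog Khdrbs3 (SLM2), controls an alternative exon of the neurexins. The values here are totals per gene, so they show how much RNA of each regulator was recovered with the tagged ribosomes and not which isoform was made.

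The libraries held 153511705 to 195910235 estimated counts, with TMM scaling factors of 0.965 to 1.02. Levels are given in CPM, a gene's count relative to the total of its library after this scaling, and differences as log2 fold changes of SD over NSD with their standard error (SE). In bulk RNA of this kind, fewer tagged cells of a type and less RNA per cell cannot be told apart. Gene classes differed in their medians. Genes of the annotation's TEC class, predicted loci that still await experimental testing, had a median log2 fold change of -1.51 and lncRNAs one of -0.36, against 0.018 for protein-coding genes and -0.016 for all genes tested.

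The 10 regulators split evenly by direction, and none of the changes passed the test that fitted condition alone. In 5 genes (Rbfox2, Nova2, Elavl2, Elavl3 and Elavl4) both SD libraries exceeded the higher NSD library, and in the other 5 (Rbfox1, Rbfox3, Nova1, Ptbp2 and Khdrbs2) both were under the lower one. Of all genes tested, 22% had both SD libraries above and 27.5% had both below. The median log2 fold change of the 10 genes was 0.011, with extremes of -0.64 (Khdrbs2) and 0.24 (Rbfox2). Genes were called at a fold change above 1.2 with an adjusted p below 0.05. With edgeR's quasi-likelihood test and Benjamini-Hochberg adjustment over all 22338 genes, 0 of the 10 were called, where 3.1% of all genes were called in either direction, 0.77% higher and 2.33% lower. At an unadjusted p under 0.05 there were 4 (Rbfox2, Elavl4, Ptbp2 and Khdrbs2), where 19.1% of all genes had such a p at any fold. The replicate block, which pairs the NSD and SD library of each batch, called 1 of the 10 lower (Khdrbs2) and 0 higher, where it called 8.47% of all genes lower and 2.99% higher. DESeq2 called 1 lower (Khdrbs2) and 1 higher (Rbfox2), where it called 5.8% of all genes lower and 3% higher. Each of the 10 genes kept its sign in all 10 alternative settings that refit the data, which include leaving out each library in turn. Because the groups did not overlap in any of the 10, leaving out a library could hardly turn a sign. The kept signs therefore add little to the directions given above.

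**Figure D1:**
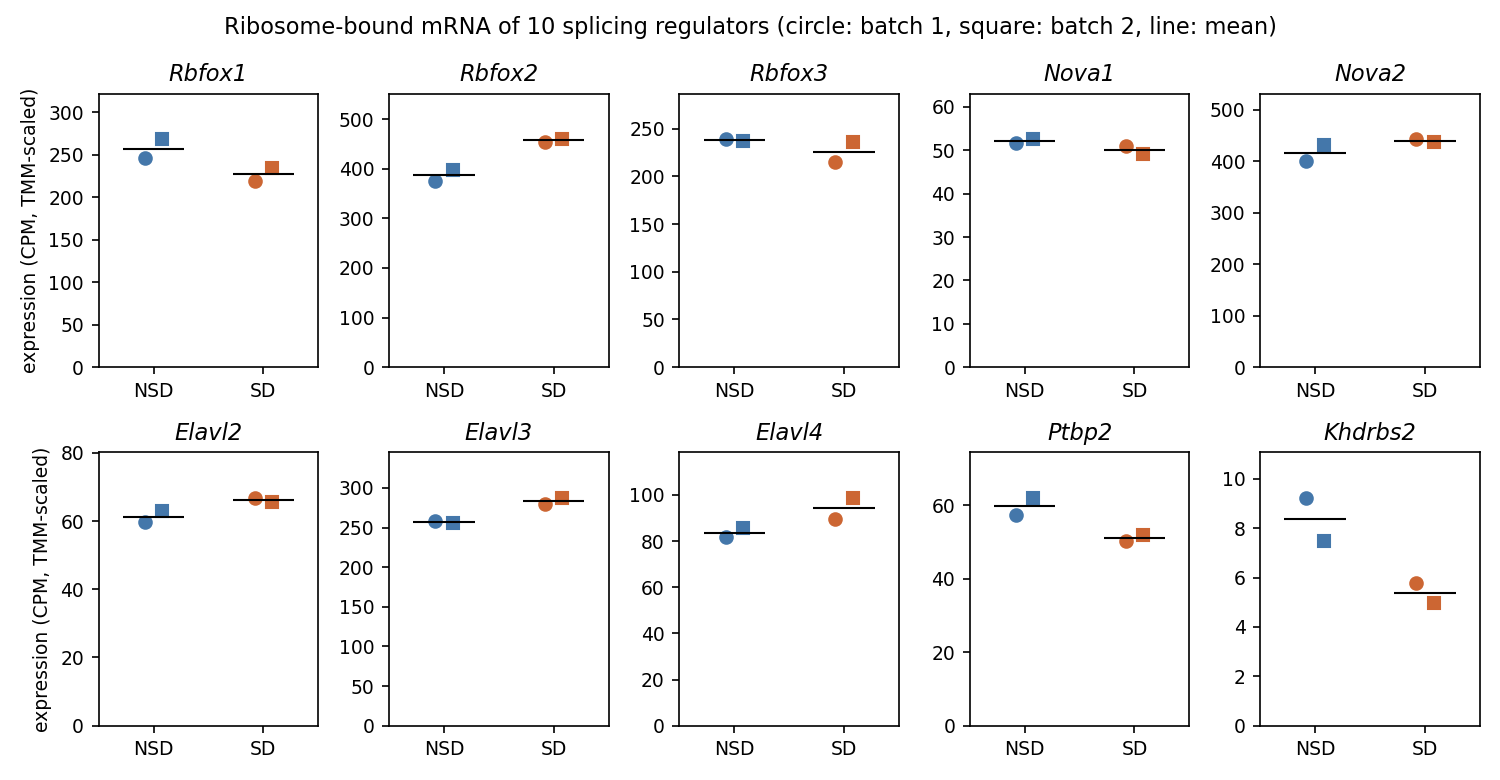
Expression of the 10 regulators in each library, in CPM on an axis that starts at 0 and differs between panels; blue points are NSD and orange points SD, circles are batch 1 and squares batch 2, and lines are group means. The SD points lie wholly above or wholly below the NSD points in every panel, with the widest relative gap for Khdrbs2.

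**Figure D2:**
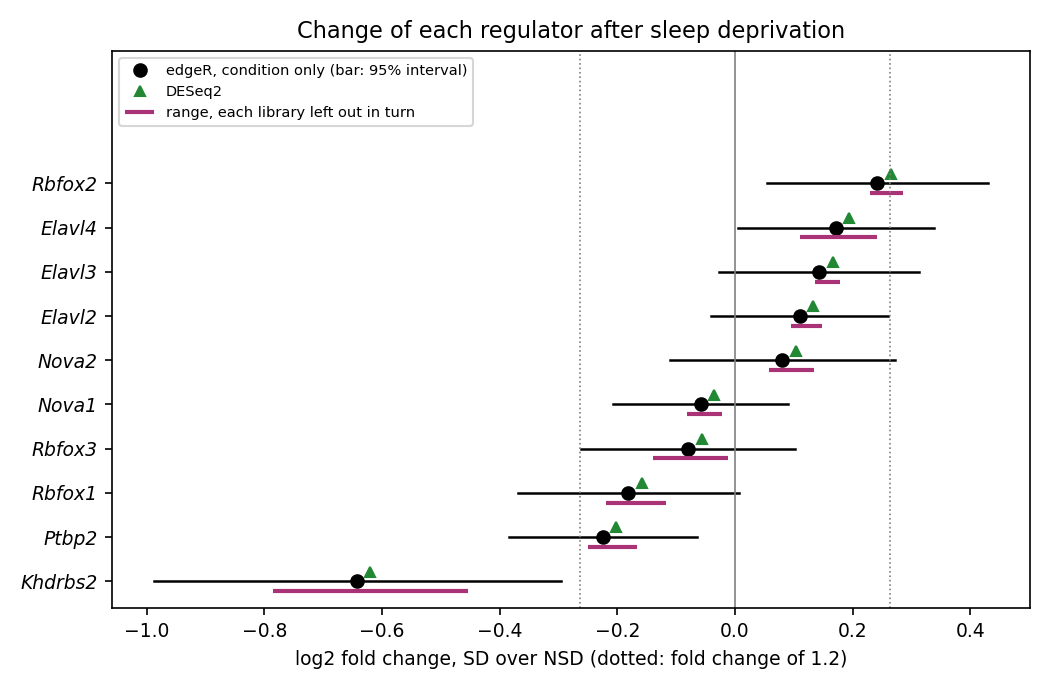
Log2 fold change of SD over NSD for each regulator, with edgeR's estimate and its 95% interval in black, DESeq2's estimate as a green triangle, and in purple the range obtained when each library was left out in turn. The interval lies clear of 0 for Khdrbs2 and Ptbp2 on the lower side and for Rbfox2 and Elavl4 on the higher side, and dotted lines mark a fold change of 1.2.

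Within the Rbfox family the paralogs differed in direction, with Rbfox2 on the higher side in SD and Rbfox1 and Rbfox3 on the lower. Rbfox2 (ENSMUSG00000033565, chr15:76963190-77191204, minus strand of GRCm39), the member that is also widely expressed outside the nervous system, stood at 374.9 and 398.0 CPM in NSD 1 and 2 and at 454.7 and 459.6 CPM in SD 1 and 2. The SD libraries were close together and both were above the NSD pair. Its log2 fold change was 0.24 (SE 0.082, 95% interval 0.054 to 0.43, n = 2 libraries per group, adjusted p = 0.149 by edgeR's quasi-likelihood test). With the replicate block edgeR gave an adjusted p of 0.0317 at a fold change still under 1.2, whereas DESeq2 estimated 0.26 with an adjusted p of 0.00354 and called it. Rbfox1 (ENSMUSG00000008658, chr16:5703219-7229390, plus strand), the paralog of neurons, heart and muscle, stood at 246.1 and 268.6 CPM in NSD and at 219.3 and 234.6 CPM in SD. Both SD libraries were below the NSD pair, by a gap smaller than the distance between the NSD libraries. Its log2 fold change was -0.18 (SE 0.082, and -0.22 to -0.12 with a library left out), with an edgeR adjusted p of 0.280 and of 0.0826 with the replicate block. Rbfox3 (ENSMUSG00000025576, chr11:118380588-118802423, minus strand), which encodes the neuronal nuclear antigen NeuN, stood at 239.2 and 237.4 CPM in NSD and at 214.7 and 236.5 CPM in SD. The groups were separated by less than 1 CPM, because SD 2 lay next to the NSD pair, and the log2 fold change was -0.08 (SE 0.080, edgeR adjusted p = 0.679). It ran from -0.14 to -0.011 with a library left out.

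A ratio of 2 genes within a library does not depend on the scaling between libraries. There were 1.52 and 1.48 counts of Rbfox2 per count of Rbfox1 in NSD, and 2.07 and 1.96 in SD. On the log2 scale the SD libraries exceeded the NSD libraries by 0.42, with 0.45 in batch 1 and 0.40 in batch 2. The ratio of Rbfox2 to Rbfox3 was 1.57 and 1.68 in NSD and 2.12 and 1.94 in SD, a log2 difference of 0.32 that was 0.43 in batch 1 and 0.21 in batch 2. The groups did not overlap in either ratio. The ratio of Rbfox3 to Rbfox1 differed by 0.10 on the log2 scale, with 0.010 in batch 1 and 0.19 in batch 2. The two-sided exact permutation test over the 4 libraries gave p = 0.333 for each of these 3 ratios, the smallest value that 2 libraries against 2 allow, so the 9 family ratios computed here are descriptions. Counts per kilobase of exon put Rbfox2 at 51.2% and 51.5% of the summed Rbfox level in NSD and at 58.8% and 57.1% in SD. With the length of the longest transcript in place of all exons these shares were 34.0% and 34.3% in NSD and 41.1% and 39.5% in SD, so the share depended on the length used and the direction did not.

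**Figure D3:**
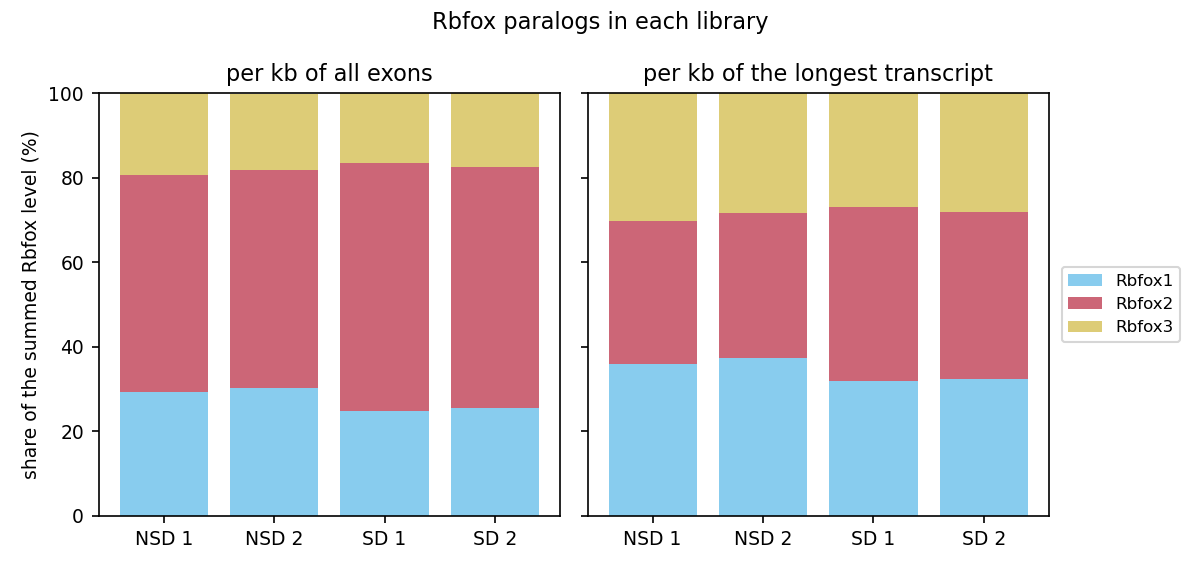
Share of each Rbfox paralog in the summed Rbfox level (%) in each library, per kilobase of all annotated exons (left) and per kilobase of the longest transcript (right). The red Rbfox2 segment is larger in both SD libraries under either length, and the Rbfox1 segment is smaller.

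Differences between the groups were small for the Nova genes, which are named for the antigens of a paraneoplastic disorder. Nova2 (ENSMUSG00000030411, chr7:18659813-18699244, plus strand), the main paralog of the forebrain cortex and hippocampus, stood at 400.6 and 431.4 CPM in NSD and at 443.2 and 436.7 CPM in SD. The gap between the groups was narrower than the spread within NSD, and the log2 fold change was 0.08 (SE 0.084, 95% interval -0.11 to 0.27, edgeR adjusted p = 0.689). It ran from 0.057 to 0.14 with a library left out. Nova1 (ENSMUSG00000021047, chr12:46741300-46865712, minus strand) stood at 51.7 and 52.6 CPM in NSD and at 50.9 and 49.3 CPM in SD. Its log2 fold change was -0.06 (SE 0.065, 95% interval -0.21 to 0.090, edgeR adjusted p = 0.717), and -0.082 to -0.023 with a library left out. There were 7.75 and 8.20 counts of Nova2 per count of Nova1 in NSD and 8.71 and 8.87 in SD, a log2 difference of 0.14 (0.17 in batch 1 and 0.11 in batch 2). Nova1 has 310 exon bases in common with Gm33869, a TEC locus on the same strand with 3.72% of its count, so some reads could belong to either.

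The 3 neuronal Elavl genes were each higher in both SD libraries, and none passed the test. Elavl4 (HuD, ENSMUSG00000028546, chr4:110060919-110209106, minus strand), which binds and stabilizes mRNAs of neurite growth and plasticity, stood at 81.6 and 85.6 CPM in NSD and at 89.5 and 98.9 CPM in SD. SD 2 was the highest library and SD 1 lay just above NSD 2. The log2 fold change was 0.17 (SE 0.073, 95% interval 0.0050 to 0.34), with an edgeR adjusted p of 0.248 and of 0.0528 with the replicate block. Leaving out a library gave 0.11 to 0.24. Elavl3 (HuC, ENSMUSG00000003410, chr9:21926301-21963319, minus strand) stood at 258.0 and 256.2 CPM in NSD and at 280.3 and 287.8 CPM in SD, a log2 fold change of 0.14 (SE 0.074, edgeR adjusted p = 0.350). Elavl2 (HuB, ENSMUSG00000008489, chr4:91139000-91289022, minus strand) stood at 59.7 and 62.9 CPM in NSD and at 66.9 and 65.5 CPM in SD, a log2 fold change of 0.11 (SE 0.066, edgeR adjusted p = 0.429). Ratios between the Elavl genes overlapped between the groups in all 3 pairs, with log2 differences of 0.03 (Elavl3 to Elavl2), 0.06 (Elavl4 to Elavl2) and 0.03 (Elavl4 to Elavl3). Elavl3 held 63.0% to 64.3% of the summed neuronal Elavl level per kilobase of exon in the 4 libraries.

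Ptbp2 (ENSMUSG00000028134, chr3:119512391-119578115, minus strand), which represses neuronal exons until neurons mature, was lower in both SD libraries. It stood at 57.4 and 62.0 CPM in NSD and at 50.3 and 51.9 CPM in SD. The distance between the groups was a little larger than that between the NSD libraries. The log2 fold change was -0.22 (SE 0.070, 95% interval -0.38 to -0.064), with an edgeR adjusted p of 0.122. The replicate block gave 0.0203, at a fold change under 1.2, and DESeq2 gave 0.116. Its paralog Ptbp1, which neurons largely switch off as they differentiate, stood at 16.5 and 13.4 CPM in NSD and at 14.4 and 10.9 CPM in SD, and the groups overlapped (log2 fold change -0.24, SE 0.15, edgeR adjusted p = 0.459). Single libraries decided this value, which was -0.04 without SD 2, -0.05 without NSD 1, -0.39 without NSD 2 and -0.46 without SD 1, where it was called lower (edgeR adjusted p = 0.0412). The Ptbp1 value is uncertain, because its exons overlap those of the antisense genes Plppr3 and E130317F20Rik, whose counts were 232% and 52.5% of its own, and whether counting used strand is not given in the sources used here. The log2 ratio of Ptbp2 to Ptbp1 differed by 0.02 between the groups (-0.20 to 0.25 with a library left out), with 3.48 and 3.49 counts of Ptbp2 per count of Ptbp1 in batch 1 and 4.64 and 4.78 in batch 2.

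Khdrbs2 (ENSMUSG00000026058, chr1:32211795-32697649, plus strand) was the least abundant of the 10 and had the largest fold change. It stood at 9.24 and 7.49 CPM in NSD and at 5.76 and 4.96 CPM in SD, from 1532, 1176, 1042 and 937 counts. Both SD libraries were below both NSD libraries, and within each batch the SD library was lower, by 0.68 in batch 1 and 0.60 in batch 2 on the log2 scale. The log2 fold change was -0.64 (SE 0.15, 95% interval -0.99 to -0.30), which is 1.56 times more in NSD. The edgeR adjusted p was 0.0611, the replicate block gave 0.00236 and DESeq2 gave 0.00567, and both of these called it. Leaving out each library in turn gave log2 fold changes of -0.79 to -0.45, with an edgeR call without NSD 2 (adjusted p = 0.0454) or without SD 1 (adjusted p = 0.00343) and none without NSD 1 (adjusted p = 0.226) or SD 2 (adjusted p = 0.105). Its paralog Khdrbs3 stood at 88.6 and 95.3 CPM in NSD and at 90.9 and 91.7 CPM in SD, with a log2 fold change of -0.01 (SE 0.067, edgeR adjusted p = 0.960) whose sign turned under DESeq2's scaling (0.012). There were 0.104 and 0.0785 counts of Khdrbs2 per count of Khdrbs3 in NSD and 0.0634 and 0.0541 in SD, a log2 difference of -0.63 (-0.72 in batch 1 and -0.54 in batch 2).

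The promoters of Khdrbs2 and Ptbp2, the regulators with the lowest unadjusted p in edgeR, are shown for their sequence context. They come from RefSeq on build GRCm38.p6, which is not the build of the counts, and each runs from 250 bases before the start to 50 after it, 5′ to 3′ on the gene's strand, with CG dinucleotides in capitals.
Khdrbs2, chr1:32172472-32172771, plus strand: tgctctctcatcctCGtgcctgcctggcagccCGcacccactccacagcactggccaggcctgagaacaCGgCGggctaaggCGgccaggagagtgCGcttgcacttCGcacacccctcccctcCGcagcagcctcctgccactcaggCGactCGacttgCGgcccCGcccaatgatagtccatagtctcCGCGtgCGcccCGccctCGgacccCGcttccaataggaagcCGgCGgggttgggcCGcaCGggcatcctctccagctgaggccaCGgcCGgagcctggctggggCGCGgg
Ptbp2, chr3:119783339-119783638, minus strand: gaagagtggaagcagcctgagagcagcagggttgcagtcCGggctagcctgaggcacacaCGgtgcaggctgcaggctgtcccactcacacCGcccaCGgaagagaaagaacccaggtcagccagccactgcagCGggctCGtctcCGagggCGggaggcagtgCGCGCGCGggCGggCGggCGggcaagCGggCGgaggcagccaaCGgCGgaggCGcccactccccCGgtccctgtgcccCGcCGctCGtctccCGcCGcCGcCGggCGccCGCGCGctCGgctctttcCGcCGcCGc
The Khdrbs2 promoter had 26 CG dinucleotides and 70.3% G and C, and the Ptbp2 promoter had 36 and 74.7%. Over the 32851 promoters of that table the medians were 7 CG dinucleotides and 52.7%. Elements that activity-dependent transcription factors bind were searched on both strands. Neither promoter held the cAMP response element TGACGTCA, found in 1.79% of all promoters, the AP-1 site TGANTCA (7.81%) or the E-box CACGTG (7.15%), nor did either hold the TATA box TATAAA (13.6%). Of the 10 genes, 9 (all but Rbfox2) had at least 1 promoter in the table, with 18 starts in all.

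Levels of different genes can be compared only per length. Per kilobase of all annotated exons and averaged over the 4 libraries, Nova2 (51.0 CPM per kb) and Rbfox2 (49.6) were the highest, and their ranges over libraries overlapped. Elavl3 (39.2) and Rbfox1 (24.8) followed, each clear of its neighbours in all 4 libraries. Rbfox3 (16.2) and Elavl4 (16.0) overlapped, Elavl2 stood at 6.53, Ptbp2 (4.47) and Nova1 (4.09) overlapped, and Khdrbs2 was the lowest at 0.390. With the longest transcript as the length, the upper 4 became Rbfox2 (59.6), Rbfox1 (55.0), Elavl3 (53.8) and Nova2 (51.0), and the other 6 kept their order. The order among the upper 4 therefore rests on the choice of length. The CPM per kilobase summed over the Rbfox genes was 86.1 and 91.0 in NSD and 91.0 and 94.7 in SD, that of the Nova genes 51.8 and 55.6 against 56.9 and 55.9, and that of the Elavl genes 58.2 and 58.9 against 63.5 and 66.2.

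The regulators are long genes, and 17 other genes of the count table lie wholly inside their spans on GRCm39, of which 15 were tested. Most of these loci had lower values in SD, by more than their hosts. With edgeR, 2 were called lower and 0 higher, where 9.74% of the tested TEC and lncRNA genes were called lower. With the replicate block 9 were called lower and with DESeq2 8. The 15 include 13 TEC and lncRNA loci, of which the replicate block called 8, where it called 29.5% of all tested genes of these classes, and DESeq2 called 7, where it called 22.1%. When edgeR's filterByExpr chose the genes to test, 0 were called. The median log2 fold change of the 15 was -1.64, and 1 (Gm37110, inside Khdrbs2) had a value above 0. SD was wholly below NSD in 11 of the 15 and in 10 of the 13, as it was in 57.5% of all tested TEC and lncRNA genes and in 77.8% of the TEC genes alone. Of the 17, 12 lie on the host's strand and 5 on the opposite strand, and the medians of those tested were -1.67 on the same strand (11 loci) and -1.14 on the opposite strand (4 loci).

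Gm42664, a lncRNA locus inside Ptbp2, had 677 and 630 counts in NSD and 251 and 219 in SD. Its log2 fold change was -1.67 (SE 0.20, edgeR adjusted p = 0.0328), beside -0.22 for Ptbp2, and the call was lost with filterByExpr (adjusted p = 0.0628). The TEC locus 4833412C15Rik inside Rbfox2 had 297 and 180 counts in NSD and 86 and 52 in SD. It fell by 1.97 on the log2 scale (SE 0.40, edgeR adjusted p = 0.0436), while Rbfox2 itself stood higher in SD. The call was lost without NSD 1 (-1.58, edgeR adjusted p = 0.177), with no count filter (adjusted p = 0.0581) and with filterByExpr (adjusted p = 0.0675). Neither has exon bases in common with its host, so both lie within host introns, and the groups did not overlap in either. The first 200 bases of each, read from GRCm39 on the host's strand, are shown because edgeR called these loci with all 4 libraries.
Gm42664, chr3:119539896-119540095, minus strand: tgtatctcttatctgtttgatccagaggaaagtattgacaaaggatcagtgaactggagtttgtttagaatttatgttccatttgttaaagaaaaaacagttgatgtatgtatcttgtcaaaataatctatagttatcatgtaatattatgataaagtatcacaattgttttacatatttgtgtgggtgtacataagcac
4833412C15Rik, chr15:76999803-77000002, minus strand: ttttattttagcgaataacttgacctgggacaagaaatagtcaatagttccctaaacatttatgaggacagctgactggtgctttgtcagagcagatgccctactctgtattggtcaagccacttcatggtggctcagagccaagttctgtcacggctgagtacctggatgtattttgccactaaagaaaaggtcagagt
The Rbfox motif TGCATG was found 0 times on this strand in the whole of either locus (3239 and 2071 bases), and 1 and 2 times when both strands were counted. Its rate in other sequences was not computed, so whether these counts are low was not tested.

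The loci on the host's strand amounted to a varying share of the host's own count. For Khdrbs2, 4 such loci (Gm37999, Gm37110, Gm37911 and Gm37792) summed to 45.0% and 29.9% of the Khdrbs2 count in NSD and to 19.5% and 18.0% in SD. For Ptbp2 the shares were 9.64% and 7.61% in NSD and 3.52% and 2.83% in SD. They were 7.55% and 4.62% against 3.39% and 3.17% for Nova1, and at most 0.864% for Rbfox2. None of these loci other than Gm33869 has exon bases in common with its host, and whether any reads of the loci entered a host's count was not tested.

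**Figure D4:**
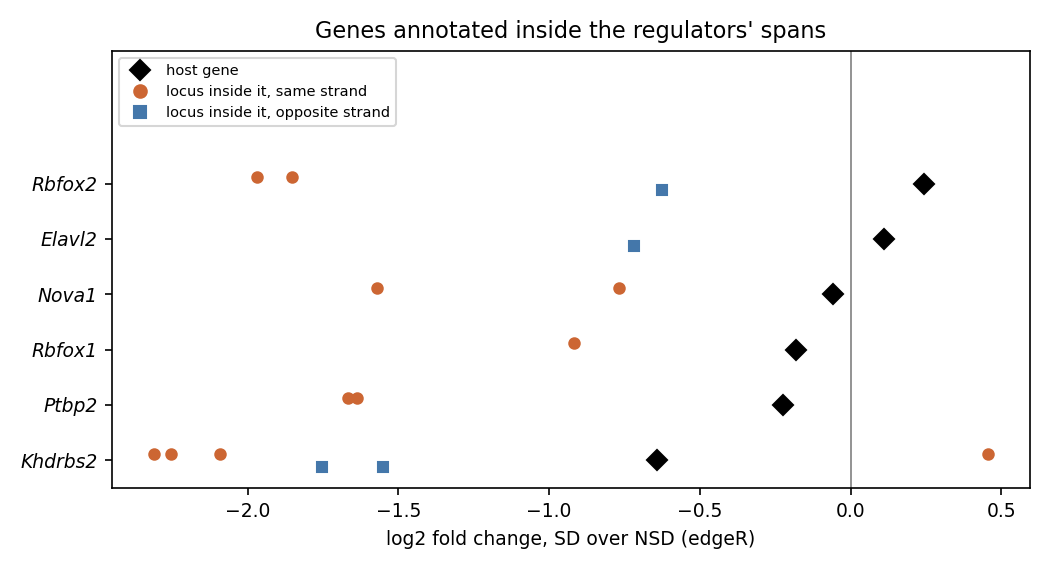
Log2 fold change of SD over NSD (edgeR) for 6 regulators (black diamonds) and for the 15 tested genes that lie inside their spans, on the host's strand (orange circles) or on the opposite strand (blue squares). All but 1 of the loci lie left of 0 and all but that 1 lie left of their host.

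Other regulators of alternative splicing, listed by symbol, were compared with the 10. Of 25 listed, 23 were tested, 0 were called in either direction by edgeR (4 at an unadjusted p under 0.05), and their median log2 fold change was 0.04. Of all genes tested, edgeR called 3.1% in either direction, and 19.1% had such a p. SD was wholly above NSD in 7 and wholly below it in 6, beside 22% and 27.5% of all genes tested. With the replicate block, which called 8.47% of all genes lower, 1 was called lower, Raver1, a partner of the Ptbp proteins. With DESeq2 0 were called. Raver1 stood at 36.6 and 33.3 CPM in NSD and at 30.5 and 27.6 CPM in SD, so the groups did not overlap (log2 fold change -0.27, SE 0.085, edgeR adjusted p = 0.126, and 0.0141 with the replicate block). With a library left out its log2 fold change ran from -0.34 to -0.17. Raver1 has 3461 exon bases in common with Gm38431 on the same strand, which makes its count uncertain. The count of Gm38431 was 4.03% of that of Raver1. The others that reached an adjusted p under 0.05 with the replicate block did so at a fold change under 1.2, namely Celf3 (-0.25), Srrm4 (0.21) and Msi1 (0.23).

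Genes known as splicing targets of these families, among them synaptic scaffolds, receptors and adhesion proteins, were read as totals per gene. Of 12 listed and tested, 0 were called by edgeR in either direction (1 at an unadjusted p under 0.05) and 0 by DESeq2. Of all genes tested, edgeR called 3.1%, and 19.1% had such a p. The median log2 fold change of the 12 was -0.0065, and the groups overlapped in 8. SD was wholly above NSD in 3 and wholly below it in 1, beside 22% and 27.5% of all genes tested. With the replicate block, which called 2.99% of all genes higher, 1 was called higher, Nrxn2, a presynaptic adhesion protein. It stood at 443 and 499 CPM in NSD and at 809 and 514 CPM in SD, so that SD 1 alone was far from the others. The log2 fold change was 0.49 (SE 0.18, edgeR adjusted p = 0.192, and 0.46 with 0.0403 under the replicate block), and without SD 1 it was 0.13 with an edgeR adjusted p of 0.784 and without SD 2 0.79 with 7.3e-06.

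**Figure D5:**
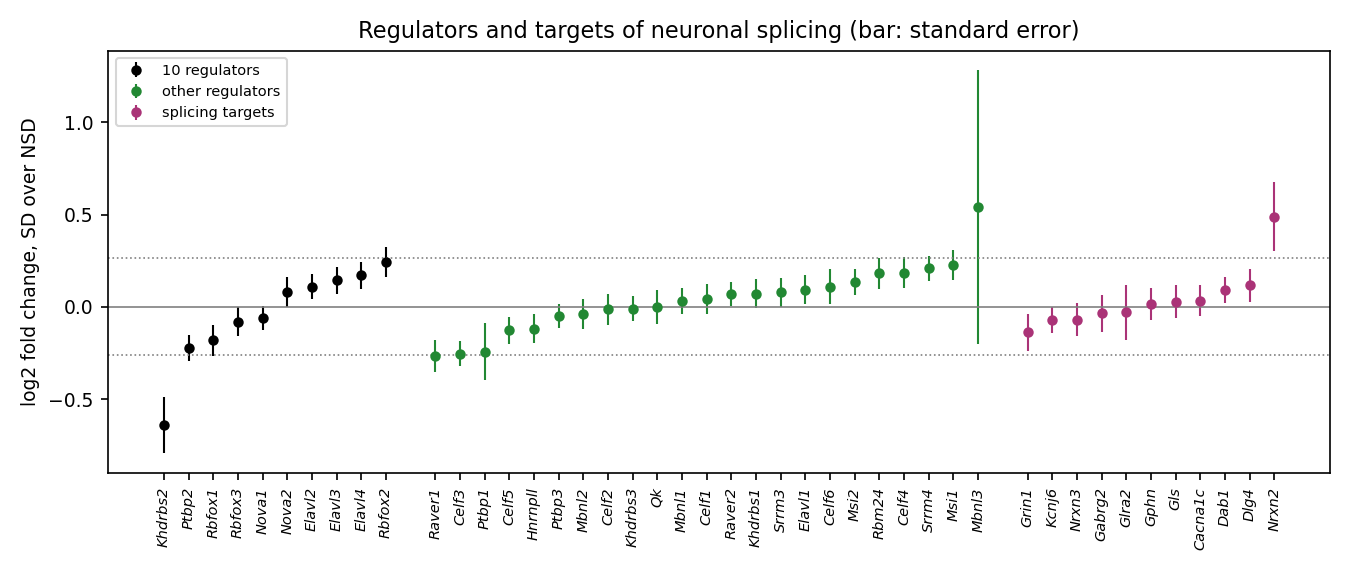
Log2 fold change of SD over NSD (edgeR) for the 10 regulators, 23 other regulators of splicing and 11 of the 12 genes known as splicing targets, sorted within each list; bars are standard errors and dotted lines mark a fold change of 1.2. Khdrbs2 is the lowest of all and Nrxn2 the highest apart from Mbnl3, whose bar is wide because it was counted at only 0.0422 to 0.238 CPM.

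Markers of cell types were read in the same libraries. Markers of CA1 pyramidal neurons were well detected (summed 1250 and 1382 CPM in NSD, 1151 and 1279 CPM in SD), those of CA3 summed to 15.5 to 18.7 CPM, and those of the dentate gyrus to 31.8 to 40.8 CPM. Of the 5 CA1 markers, 0 were called by edgeR, and 3 were called lower with the replicate block, which called 8.47% of all genes lower, and 3 with DESeq2, which called 5.8% lower. The other 2 CA1 markers had log2 fold changes above 0 (0.08 and 0.14), and in 1 of them SD was wholly above NSD. The summed GABAergic markers were 810 and 774 CPM in NSD and 796 and 719 CPM in SD, and those of oligodendrocytes 1515 and 1262 against 1492 and 1410, so both overlapped between groups, as did those of astrocytes and microglia. The 5 endothelial markers all had values below 0, at 33.5 and 47.0 CPM in NSD and 27.8 and 18.8 CPM in SD, with 0 called by edgeR, 4 lower with the replicate block and 3 lower with DESeq2. Over all genes the replicate block called 8.47% lower and DESeq2 5.8%. All 6 listed lncRNAs known from the nucleus were lower, 5 of them called by edgeR, with sums of 5941 and 3901 CPM in NSD and 2978 and 2136 CPM in SD. Of the tested TEC and lncRNA genes, edgeR called 9.74% lower, and SD was wholly below NSD in 57.5%. The part of endothelial, CA1 and nuclear RNA in the values of the regulators was not tested.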

How the data were processed

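The authors pooled CA1 tissue, precipitated HA-tagged ribosomes, prepared ribosomal-RNA-depleted stranded total RNA libraries and processed reads in Partek Flow. Reads were trimmed, aligned with STAR to mm39 (GRCm39) and assigned to Ensembl 110 genes by an expectation-maximization model. The table deposited holds these estimated counts, not normalized. They were rounded to whole numbers and tested with edgeR 4.0.16 (R 4.3.3, TMM, quasi-likelihood fit, condition only) for genes over 5 counts in each library. Adjustment was Benjamini-Hochberg over all genes tested. Genes were called at a fold change above 1.2 with an adjusted p below 0.05. Alternatives were DESeq2 1.42.0, its size factors in edgeR, other gene filters, protein-coding genes only, a replicate block and each library left out. The fits were checked on simulated counts. Batch numbers, which equal the replicate numbers, pair the libraries (correlation of deviations 0.178). Replicates differed beyond counting error, and p-values measure the spread between pools. Lengths, overlaps and locus sequences came from GENCODE and GRCm39. Of the 28193 gene identifiers, 99.2% were in that annotation, and 40.8% of those matched had an identical span. The 10 genes and all lists were chosen with earlier results of these data known. All 10 genes were named, and of the other lists those called by edgeR or with the block, plus Khdrbs3 and Ptbp1. Overlapping genes, the loci inside Khdrbs2 and Nova1, Celf3, Srrm4, Msi1 and Mbnl3 were named after their values were seen. Results for some genes are not reported here.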

Additional observations from a re-analysis of the deposited data

How the results depend on the processing

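With 2 libraries per group the spread between pools limits every call. Over all genes, edgeR called 172 higher and 520 lower. The counts were 671 and 1296 with DESeq2, 668 and 1891 with the replicate block, 50 and 80 with no count filter, 1 and 0 with filterByExpr, and 51 and 39 among protein-coding genes only. Calls higher in SD made up 24.9% of all calls in edgeR, 34.1% with DESeq2, 26.1% with the replicate block, 38.5% with no count filter, 56.7% among protein-coding genes, 61.4% without NSD 1, 33.9% without NSD 2, 13% without SD 1 and 28.4% without SD 2. Leaving out each library in turn gave 124 to 308 higher and 78 to 1955 lower, with the remaining library of a group assumed to vary like the others; 1955 were called lower without SD 1 and 78 without NSD 1. Of the 10 regulators, DESeq2 called 1 higher and 1 lower, the replicate block 1 lower, and leaving out a library 0 to 1 lower (1 without NSD 2 or SD 1). The replicate block called 1 of the other regulators lower and 1 target higher, and leaving out a library gave 0 to 1 for each (Ptbp1 without SD 1, Nrxn2 without SD 2). Loci inside the spans were called lower in 8 cases with DESeq2, 9 with the replicate block, 1 with no count filter and 0 with filterByExpr. Over all genes the same settings called 1296, 1891, 80 and 0 lower. Khdrbs3 turned from -0.01 to 0.012 with DESeq2 and with its size factors in edgeR and to 0.018 with no count filter, and ran from -0.033 to 0.043 with a library left out. The cause of these shifts was not tested.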
